A study of Mus musculus with 9 samples.

Results

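The genes described here are 42 genes of the G2 phase and mitosis, the stages in which a cell checks its copied DNA and then divides. They were listed by name from their known roles in cell division, and 41 of the 42 were measured by a probe set assigned to a single gene symbol, among 22180 genes tested. Ccnb1, which encodes the main mitotic cyclin, was not analysed here. Myeloid cells were taken 24 h after the plantar hindpaw had been incised, from C57BL/6J males that were 8 weeks old. Every gate was positive for the myeloid integrin CD11b and negative for the neutrophil protein Ly6G, and collection of all cells took place on 1 day. The cells were sorted by surface Ly6C into high, medium and low gates with 3 Affymetrix arrays each, 9 in all. Monocytes fresh from the blood carry much Ly6C, and tissue macrophages often carry little. Blood cells and unwounded skin were not analysed here. The labels do not say whether the arrays of a gate came from separate animals, so a p-value here reflects the spread among these arrays, and that spread may be technical.

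Mitotic genes are transcribed in a wave late in the cell cycle, so in a mixed population their RNA depends largely on how many cells are close to division. Cyclin A and B proteins activate the kinase CDK1, which drives chromosomes to condense and the spindle to form. The spindle checkpoint holds the cell until each kinetochore is attached. A ubiquitin ligase, the APC/C, then destroys cyclin B so that the cell can leave mitosis and split. Monocytes are mostly non-dividing cells made from dividing precursors in the bone marrow, whereas resident tissue macrophages can renew themselves by local division. The series asks how Ly6C gates of wound myeloid cells differ, and these genes bear on whether cells in a gate divide in the wound. In sorted bulk samples, a larger number of dividing cells and more mitotic RNA per dividing cell cannot be told apart.

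Many mitotic genes are known to share promoter elements, the cell cycle genes homology region (CHR), read by the MuvB complexes, and CCAAT boxes, read by the factor NF-Y. In RefSeq promoter windows of 300 bases (250 before and 50 after the gene start given in the table, build GRCm38.p6), 32 of the 41 measured genes had an entry. The CHR letters TTTGAA, searched on both strands, were in 26 of 32 windows (81.2%), against 15.8% of 16990 windows of the tested genes. The variant TTCGAA was in 3 of 32 (9.38%, against 1.76%), and the letters CCAAT were in 24 of 32 (75%, against 38.5%). Both a CHR of either form and a CCAAT box were in 22 of 32 windows (68.8%, against 7.11%), and 17 held at least 2 CCAAT boxes (53.1%, against 12.9%). Matches can overlap, as a forward and a reverse CCAAT box of the Ube2c window did, and the variant reads the same on both strands. The windows printed are those of the 4 genes with the largest differences between Ly6C low and high among the 22, from 250 bases before to 30 after the start, with CHR, its variant and CCAAT letters of either strand in capitals.
Top2a (chr11:99024160-99024439, minus strand): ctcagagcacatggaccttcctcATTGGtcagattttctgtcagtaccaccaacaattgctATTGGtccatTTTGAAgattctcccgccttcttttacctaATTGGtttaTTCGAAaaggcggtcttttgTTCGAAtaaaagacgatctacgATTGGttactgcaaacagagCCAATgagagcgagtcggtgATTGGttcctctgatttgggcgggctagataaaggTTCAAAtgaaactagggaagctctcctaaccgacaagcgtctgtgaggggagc
Mki67 (chr7:135716350-135716629, minus strand): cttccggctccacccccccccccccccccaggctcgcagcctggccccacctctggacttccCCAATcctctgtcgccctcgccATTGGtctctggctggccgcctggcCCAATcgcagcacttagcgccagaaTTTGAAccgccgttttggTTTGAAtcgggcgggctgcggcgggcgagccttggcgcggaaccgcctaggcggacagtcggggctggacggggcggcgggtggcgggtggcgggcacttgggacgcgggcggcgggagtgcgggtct
Ube2c (chr2:164769679-164769958, plus strand): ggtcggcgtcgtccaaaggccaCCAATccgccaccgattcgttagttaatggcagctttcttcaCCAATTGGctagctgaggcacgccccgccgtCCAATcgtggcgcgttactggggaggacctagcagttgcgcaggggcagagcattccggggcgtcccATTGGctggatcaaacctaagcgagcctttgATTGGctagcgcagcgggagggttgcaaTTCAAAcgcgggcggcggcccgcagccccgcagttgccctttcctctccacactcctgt
Ccnb2 (chr9:70421525-70421804, minus strand): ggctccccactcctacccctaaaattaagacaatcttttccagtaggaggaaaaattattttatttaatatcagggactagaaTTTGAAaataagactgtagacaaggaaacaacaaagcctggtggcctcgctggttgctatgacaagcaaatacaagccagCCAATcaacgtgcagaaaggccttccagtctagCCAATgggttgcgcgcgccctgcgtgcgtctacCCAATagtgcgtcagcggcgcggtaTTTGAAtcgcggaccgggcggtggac
The Ccnb2 window held 3 forward CCAAT boxes that began 87, 54 and 21 bases before the start, and a CHR beginning at base 5 of the transcript. The Ube2c window held 6 CCAAT boxes on either strand and a reverse CHR beginning 29 bases before the start. In the Top2a window the reverse CHR nearest the start began 23 bases before it, and 6 CCAAT boxes lay farther upstream. The windows of Birc5, Mad2l1 and Nuf2 held none of the 3 motifs.

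**Figure D1:**
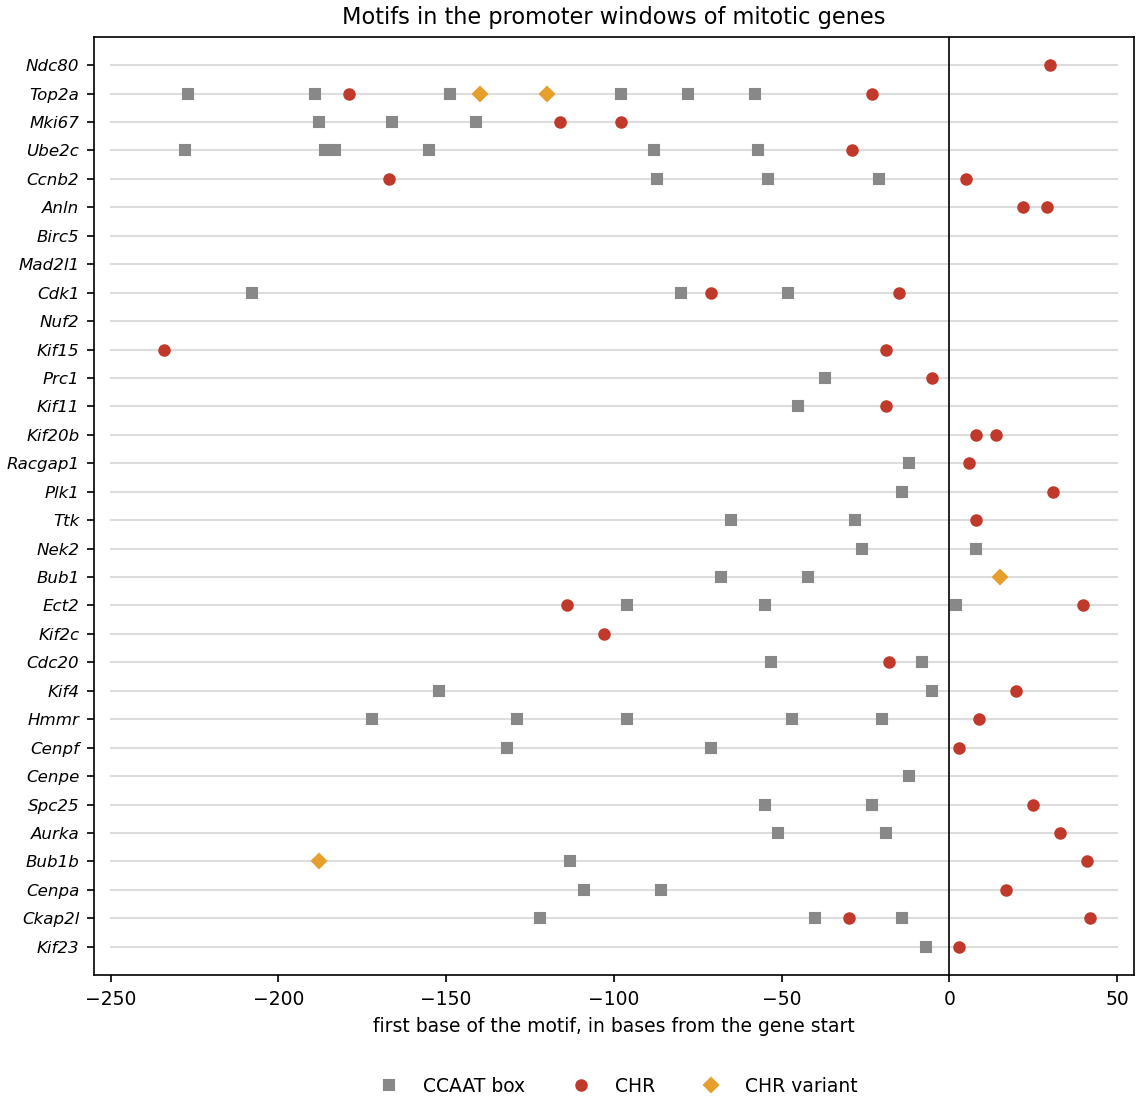
Positions of the motifs in the promoter windows of 32 mitotic genes, with the first base of each motif in bases from the gene start on the x axis and genes ordered by the difference between Ly6C low and high (largest at the top). CHR letters (circles) and their variant (diamonds) lie mostly near the start, with CCAAT boxes (squares) mostly upstream, and 3 genes have no match.

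Among genes outside the list, 3.54% of 1186 genes with both motifs and 3.55% of 15772 others were higher in Ly6C low at the threshold used below. Of the listed genes with a window, the 22 with both motifs had a median log2 difference between low and high of 0.28 and the 10 others 0.66.

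As a group, mitotic genes read higher in Ly6C low than in the other gates, by a small amount, and medium read close to high. The mean log2 intensity over the 41 genes was 4.01, 4.10 and 4.14 on the Ly6C high arrays, 4.19, 4.04 and 4.06 on the medium arrays, and 4.55, 4.63 and 4.32 on the low arrays. All 3 low arrays were above the other 6, with low replicate 3 nearest to them. The low minus high difference was above 0 for 36 of 41 genes (87.8%, against 52.7% of all genes), with a median log2 difference of 0.35, a 1.28-fold difference, against 0.01 over all genes tested. The median was 0.34 with quantile normalization repeated and 0.32 with arrays centred.

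Past the threshold, an adjusted p under 0.05 from limma with Benjamini-Hochberg adjustment over all 22180 genes, stood 4 of 41 genes in low versus high, Top2a, Anln, Birc5 and Kif20a, all higher in low, and 0 lower (against 2.32% of all genes). That is 9.76% of the genes measured, where 5.67% of all genes were called in either direction and 3.35% were called higher. Every low array was above every high array for 16 genes and below for 0 (39%, against 11.4% of all genes higher and 8.76% lower). At an unadjusted p under 0.05, 19 of the 41 were higher (46.3%, against 10.4%) and 0 lower (against 7.46%). The moderated F test over the 3 gates called Birc5, Kif20a and Anln, 3 of 41, where 4% of all genes were called. The count in low versus high was 12 without Ly6C low replicate 3, where 5.6% of all genes were called. It was between 1 and 4 without any other array, with 2.69% to 4.8% of all genes called. The 1 came without low replicate 2 (2.93% of all genes). By role, the median log2 difference ran from 0.12 over 7 kinetochore genes to 1.06 over 2 chromosome genes.

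Low replicate 3 stood apart from the other low arrays for many of these genes. It was the lowest low array for 25 of 41 genes, low replicate 1 for 13 and low replicate 2 for 3. It exceeded all high arrays for 20 genes (48.8%), against 30 for low replicate 1 (73.2%) and 32 for low replicate 2 (78%). Over all genes the shares were 31.1%, 30.7% and 25.5% in that order. The 6 genes highest on low replicate 3 were Cdk1, Plk1, Mad2l1, Kif20a, Ckap2l and Pbk. Without it the 12 genes past the threshold between low and high were the 4 named above with Ccna2, Ccnb2, Kif11, Kif15, Kif20b, Ndc80, Nuf2 and Racgap1. For each gene added, low replicate 3 was the lowest low array. That array was singled out from these same values, so the added calls are no support.

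Markers of other cells differed on that array too. The classical monocyte markers (8 genes) averaged 8.97 on low replicate 3 against 8.20 and 8.38 on replicates 1 and 2, and Ly6c2, the transcript of the sorted protein, stood at 9.40 against 7.69 and 7.90. The neutrophil markers (14 genes) averaged 5.82 against 4.83 and 5.13, with Elane and Mpo, genes of dividing neutrophil precursors, between 3.85 and 4.26 in every gate mean. Whether these markers account for the lower mitotic readings on low replicate 3 was not tested.

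**Figure D2:**
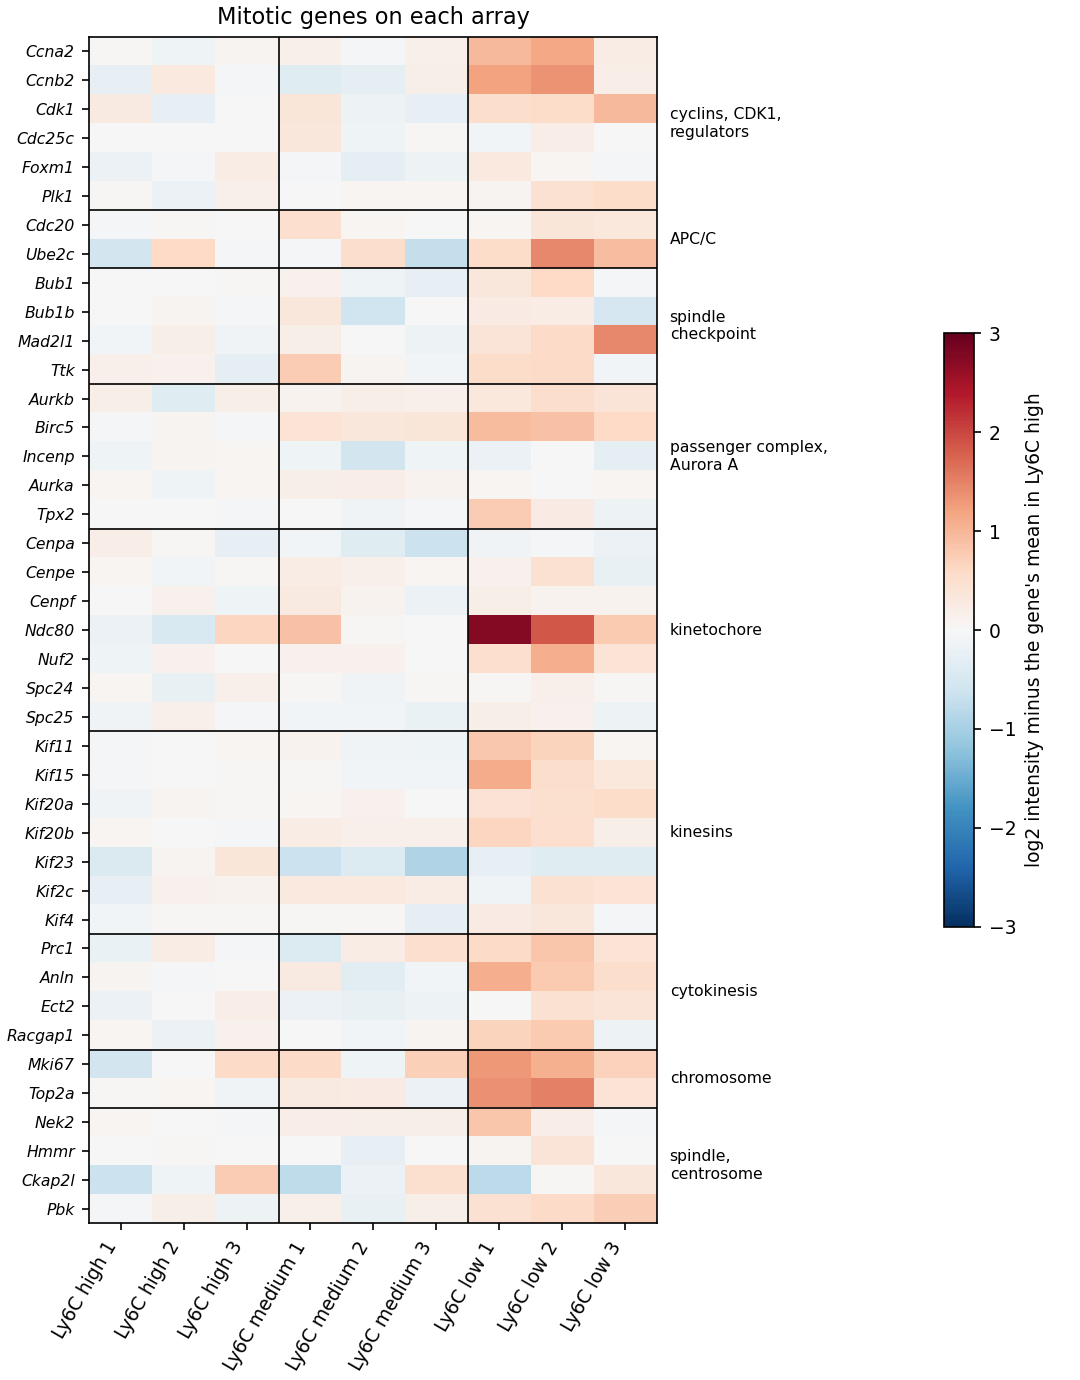
Log2 intensity of each of the 41 measured genes on each of the 9 arrays, minus the gene's mean over the 3 Ly6C high arrays, with genes grouped by role. Ly6C low replicates 1 and 2 carry most of the positive values, Ly6C low replicate 3 fewer, and the medium arrays resemble the high ones.

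The genes of chromosome structure were among the largest differences. Top2a, the topoisomerase that untangles replicated DNA, read 4.70, 4.72 and 4.54 in Ly6C high, 4.92, 4.89 and 4.47 in medium, and 6.03, 6.17 and 5.05 in low. Low replicates 1 and 2 stood well above the other gates while replicate 3 was just above them. The difference between low and high was 2.14-fold (log2 1.10, SE 0.27, limma adjusted p = 0.0476). Leaving out any 1 of 8 arrays ended this call, with an adjusted p that reached 0.162 without low replicate 1, and was at 0.00315 without low replicate 3. It was also lost with quantile normalization (0.0549) or centring (0.0512).

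Mki67, which encodes the Ki-67 protein coating mitotic chromosomes and is a common marker of cycling cells, read 6.07, 6.60 and 7.18 in Ly6C high, 7.18, 6.50 and 7.33 in medium, and 7.92, 7.69 and 7.30 in low. Its probe set was bright in all gates, and each low array was above each high array although medium replicate 3 was above low replicate 3. The difference of low from high was 2.02-fold, with an SE of 0.31 on the log2 scale, short of the threshold (limma adjusted p = 0.103). The high arrays spread over more than a log2 unit.

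Of 6 genes for cyclins, CDK1 and its regulators, 0 passed with limma, where 5.67% of all genes did. At an unadjusted p under 0.05, 4 were higher in low (66.7%, against 10.4%). Ccnb2, the second B-type cyclin, read 5.59, 6.13 and 5.78 in Ly6C high, 5.47, 5.57 and 6.01 in medium, and 7.05, 7.17 and 6.04 in low. Low replicates 1 and 2 were above all other arrays and replicate 3 fell among the high ones, so the low and high ranges overlapped (log2 difference 0.92, SE 0.29, limma adjusted p = 0.121). Cdk1, the kinase itself, read 4.92, 4.40 and 4.64 in Ly6C high, 5.02, 4.49 and 4.41 in medium, and 5.19, 5.22 and 5.62 in low. Here low replicate 3 was the highest array of all, and the low arrays did not overlap the others (log2 difference 0.69, adjusted p = 0.0905). Ccna2, cyclin A of S and G2 phase, read 4.89, 5.08 and 4.14 on the low arrays, all above the high and medium arrays (log2 difference 0.79, SE 0.21, adjusted p = 0.0729). Plk1, a kinase of mitotic entry, was at 3.67 ± 0.17 in the Ly6C high gate (SD, n = 3), 3.70 ± 0.03 in the medium gate and 4.03 ± 0.26 in the low gate (adjusted p = 0.206).

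Regulators of CDK1 and of the APC/C were not past the threshold. Foxm1, the factor that transcribes many late cell cycle genes, read 3.83, 3.96 and 4.22 in Ly6C high, 3.96, 3.70 and 3.84 in medium, and 4.29, 4.05 and 3.96 in low. Its gates overlapped, with a log2 difference of 0.10 (SE 0.14, limma adjusted p = 0.822). Cdc25c, a phosphatase that activates CDK1, differed by 0.04 with all gate means between 3.18 and 3.26. Cdc20, the activator of the APC/C, differed by 0.25 (adjusted p = 0.451), and its low arrays did not overlap the high ones. Ube2c, the enzyme that supplies ubiquitin to the APC/C, had a larger difference and a wide spread. It read 4.64, 5.81 and 5.15 in Ly6C high, 5.15, 5.73 and 4.48 in medium, and 5.76, 6.63 and 6.12 in low. Low and high overlapped, with SDs of 0.58, 0.62 and 0.44 in high, medium and low and a log2 difference of 0.97 (adjusted p = 0.207).

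**Figure D3:**
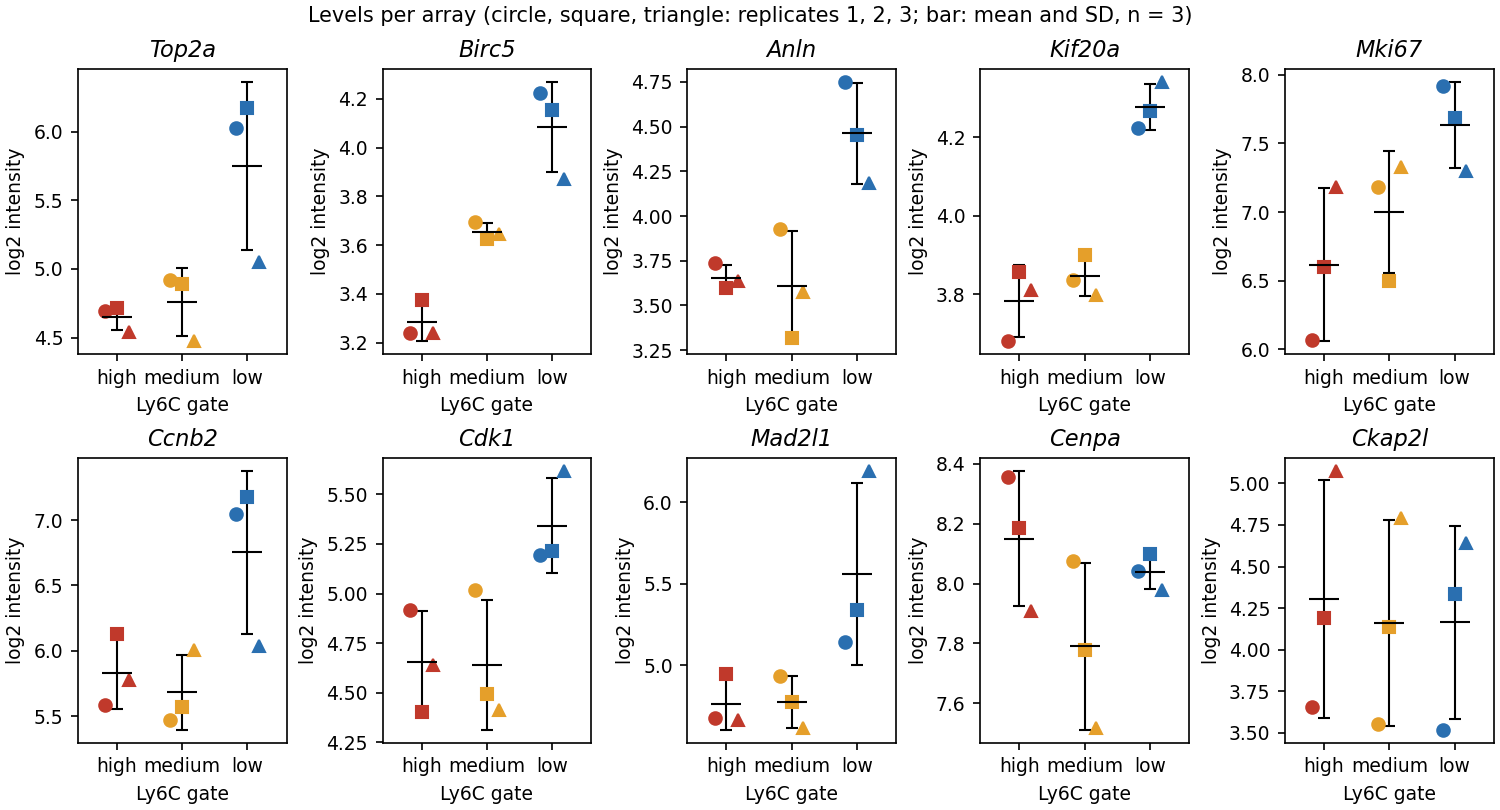
Log2 intensity of 10 mitotic genes on each array by Ly6C gate, with replicates as symbols and bars for the mean and SD of 3 arrays, each panel on its own scale. Top2a, Birc5, Anln and Kif20a were past the threshold between low and high. Cdk1 and Mad2l1 were highest on low replicate 3, and Ckap2l was ordered alike by replicate number in every gate.

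Of the spindle checkpoint, 0 of 4 genes passed with limma, where 5.67% of all genes did. At an unadjusted p under 0.05, 1 was higher (25%, against 10.4%). That gene was Mad2l1, whose protein blocks the APC/C, at 4.68, 4.95 and 4.66 in Ly6C high, 4.93, 4.77 and 4.62 in medium, and 5.15, 5.34 and 6.19 in low. Low replicate 3 was highest by far, the opposite of its place for Top2a and Ccnb2 (log2 difference 0.80, SE 0.24, limma adjusted p = 0.106). The kinase genes Bub1 and Ttk differed by 0.29 and 0.35, and Bub1b, a partner that also restrains the APC/C, by -0.01, with overlapping arrays in each case (adjusted p of 0.445, 0.57 and 0.995).

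Birc5 had the lowest adjusted p of the 41 genes between low and high. It encodes survivin, a subunit of the chromosomal passenger complex that corrects faulty chromosome attachments, and read 3.24, 3.37 and 3.24 in Ly6C high, 3.70, 3.63 and 3.64 in medium, and 4.22, 4.15 and 3.87 in low. The 3 gates did not overlap, with medium between the others. Low was 1.74-fold above high (log2 difference 0.80, SE 0.11, limma adjusted p = 0.0045), and the call held without each array in turn (adjusted p up to 0.0238, without low replicate 2). Its readings were dim, with means of 3.28 in high and 4.08 in low. The 90th percentiles of 28 genes of unrelated tissues were 4.15 and 4.22 in these gates. Medium was above high by 0.37 (adjusted p = 0.422) and low above medium by 0.43 (adjusted p = 0.102).

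The other genes of that complex and of Aurora A were not past the threshold. Aurkb, its kinase, read 4.30, 3.77 and 4.32 in Ly6C high, 4.23, 4.30 and 4.28 in medium, and 4.46, 4.67 and 4.52 in low. The low arrays were above the others by a narrow margin (log2 difference 0.42, limma adjusted p = 0.169). Incenp, the scaffold that binds the kinase, had a bright probe set at 5.76, 5.98 and 5.95 in Ly6C high, 5.76, 5.35 and 5.76 in medium, and 5.73, 5.89 and 5.60 in low. Its gates overlapped, at a difference of -0.16 (adjusted p = 0.677). Aurka, the spindle pole kinase, was at 5.36 ± 0.12 in the Ly6C high gate (SD, n = 3), 5.52 ± 0.06 in the medium gate and 5.40 ± 0.04 in the low gate, and its activator Tpx2 differed by 0.28 (adjusted p = 0.554). Aurka was the only one of the 41 genes for which every low array was below every medium array, at a log2 difference of -0.12.

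At the kinetochore, 0 of 7 genes passed with limma, where 5.67% of all genes did. Ndc80 and Nuf2 were higher at an unadjusted p under 0.05 (28.6%, against 10.4%). They encode the paired arms of the NDC80 complex that grips spindle microtubules. Ndc80 read 2.61, 2.33 and 3.43 in Ly6C high, 3.67, 2.83 and 2.81 in medium, and 5.53, 4.67 and 3.58 in low. Its fitted log2 difference was 1.80, with a wide spread among the low arrays, and its high mean of 2.79 lay below the dimmest of 28 genes of unrelated tissues (2.89), so no fold is given (log2 SE 0.48, limma adjusted p = 0.0678). Nuf2 was at 2.98 ± 0.13 in the Ly6C high gate (SD, n = 3), 3.06 ± 0.09 in the medium gate and 3.65 ± 0.37 in the low gate (adjusted p = 0.0621). The remaining subunits of that complex, Spc24 and Spc25, differed by 0.08 and 0.06 with overlapping arrays. Cenpe, a kinetochore motor, and Cenpf, a kinetochore and nuclear matrix protein, differed by 0.12 and 0.13.

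Cenpa, the histone variant that marks the centromere, stood apart in brightness. It read 8.36, 8.19 and 7.91 in Ly6C high, 8.07, 7.78 and 7.52 in medium, and 8.04, 8.10 and 7.98 in low, the brightest probe set of the 41. Its low and high arrays overlapped (log2 difference -0.11, SE 0.16, limma adjusted p = 0.831). Brightness differs between probe sets for the same amount of RNA, so Cenpa is compared here only between gates.

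Among 7 mitotic kinesins 1 passed, higher in low (14.3%, against 3.35% of all genes). At an unadjusted p under 0.05, 4 were higher (57.1%, against 10.4%). Kif20a, a motor of the spindle midzone that brings the passenger complex there, read 3.68, 3.86 and 3.81 in Ly6C high, 3.84, 3.90 and 3.80 in medium, and 4.22, 4.27 and 4.34 in low. All low arrays, replicate 3 included, were above all others (log2 difference 0.49, SE 0.09, 1.41-fold, limma adjusted p = 0.0161). The call was lost only without low replicate 2 (0.055). Kif15, a motor that helps hold spindle poles apart, had the lowest high and medium readings of these motors at 2.55, 2.60 and 2.62 in Ly6C high, 2.62, 2.50 and 2.51 in medium, and 3.70, 3.11 and 2.90 in low. Its low arrays did not overlap the rest (log2 difference 0.65, adjusted p = 0.0781). Kif11, the main motor that separates spindle poles, differed by 0.51 (adjusted p = 0.169) and Kif20b, a kinesin of cytokinesis, by 0.44 (adjusted p = 0.0876).

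The other kinesins were not past the threshold. Kif4, a chromosome-bound motor, read 2.71, 2.83 and 2.83 in Ly6C high, 2.83, 2.81 and 2.51 in medium, and 3.03, 3.14 and 2.72 in low. These values overlapped across gates, at a difference of 0.17 (limma adjusted p = 0.609). Kif2c, which takes microtubules apart at centromeres, differed by 0.26. Kif23, a midzone motor needed for cytokinesis, had the most negative difference of the 41 genes, at 4.16, 4.68 and 4.95 in Ly6C high, 3.96, 4.19 and 3.70 in medium, and 4.35, 4.23 and 4.23 in low. Low minus high was -0.33 on the log2 scale (adjusted p = 0.469), and medium minus high was -0.65 (adjusted p = 0.436).

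Of 4 cytokinesis genes Anln passed, higher in low (25%, against 3.35% of all genes). It encodes anillin, which links the contractile ring to the membrane, and read 3.74, 3.60 and 3.64 in Ly6C high, 3.93, 3.32 and 3.58 in medium, and 4.75, 4.45 and 4.19 in low. Each low array was above the high and medium arrays (log2 difference 0.81, SE 0.18, 1.75-fold, limma adjusted p = 0.0346). Leaving out any 1 of 6 arrays ended this call (adjusted p up to 0.115, without low replicate 1). Prc1, which bundles midzone microtubules, was at 5.11 ± 0.21 in the Ly6C high gate (SD, n = 3), 5.21 ± 0.46 in the medium gate and 5.72 ± 0.22 in the low gate (adjusted p = 0.185). Racgap1 and Ect2, which together switch on the contractile ring, differed by 0.44 and 0.28 (adjusted p of 0.363 and 0.366). Racgap1 was at 5.25 and 5.35 on low replicates 1 and 2 and at 4.43 on replicate 3.

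Genes of the spindle and centrosome were mixed. Pbk, a mitotic kinase, was at 3.86 ± 0.17 in the Ly6C high gate (SD, n = 3), 3.90 ± 0.23 in the medium gate and 4.45 ± 0.14 in the low gate, with low arrays above all others and a limma adjusted p of 0.0506, just outside the threshold. Nek2, a centrosome kinase, differed by 0.33, and Hmmr, a spindle and hyaluronan binding protein, was the dimmest of the 41 genes at 2.65, 2.71 and 2.65 in Ly6C high, 2.67, 2.43 and 2.65 in medium, and 2.76, 3.06 and 2.65 in low. Hmmr overlapped between gates (adjusted p = 0.635). Ckap2l, a spindle protein, read 3.65, 4.19 and 5.07 in Ly6C high, 3.55, 4.14 and 4.79 in medium, and 3.52, 4.33 and 4.64 in low. The gates overlapped for Ckap2l (-0.14, adjusted p = 0.935), yet in each gate replicate 1 was lowest and replicate 3 highest, an order no other of the 41 genes showed in all gates.

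**Figure D4:**
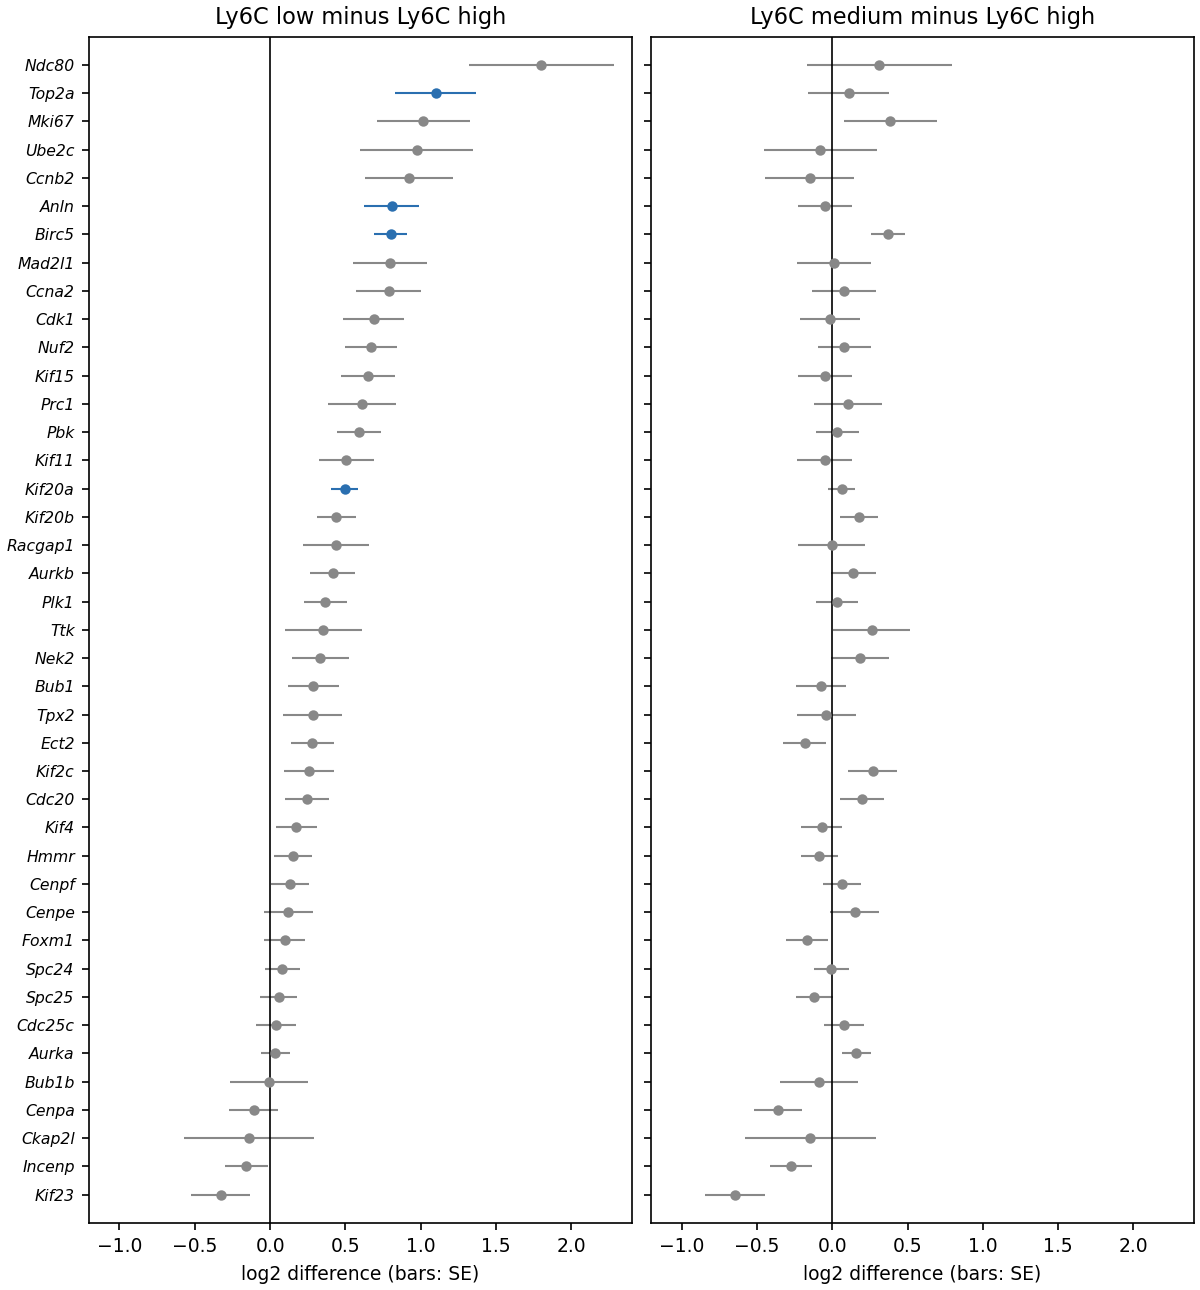
Log2 differences of the 41 genes, Ly6C low minus high on the left and medium minus high on the right, with SE bars from limma and genes ordered by the left panel. Filled blue points were past the adjusted threshold, and most genes lie right of 0 on the left and around 0 on the right.

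No difference between Ly6C medium and high was detected in these genes. With limma, 0 of 41 were called, where 0.239% of all genes were (0.0406% higher and 0.198% lower). At an unadjusted p under 0.05, Birc5 was higher and Kif23 lower (against 3.72% and 3.81% of all genes). The median difference was 0.01, and 21 of 41 were above 0 (51.2%, against 56.8% of all genes). For 6 genes every medium array was above every high array (14.6%, against 5.77%), Birc5, Aurka, Cenpe, Kif20b, Kif2c and Nek2. The medium mean was nearer to high than to low for 29 of 41. The median was -0.03 with quantile normalization repeated and with arrays centred, where the median over all genes was 0.01 and -0.02, against 0.03 as deposited. The fit of these 2 gates alone called 0.00451% of all genes and the test without moderation 0%, so their 0 calls among the 41 say nothing about these genes.

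Low also read above medium, without a call. With limma, 0 of 41 genes passed, where 1.93% of all genes did (1.38% higher and 0.541% lower). At an unadjusted p under 0.05, 16 were higher in low (39%, against 8.54%) and 0 lower. The difference was above 0 for 37 of 41 (90.2%, against 46.1%), with a median of 0.32. Every low array was above every medium array for 16 genes (39%, against 9.25%) and below for Aurka (against 7.58%). Without Ly6C low replicate 3, 8 genes passed, Anln, Birc5, Ccna2, Ccnb2, Kif11, Kif15, Racgap1 and Top2a. In that fit 2.35% of all genes were called. Low replicate 3 was the lowest low array for each of these 8 genes, so their calls are no support. The test without moderation and the fit of these 2 gates alone called 0 of the 41, and 0.149% and 0.951% of all genes.

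The brightness of the probe sets limits what the readings show, and the files hold no detection calls. For scale, 28 genes of unrelated tissues such as liver, retina and testis had gate means with medians of 3.50, 3.51 and 3.49 in high, medium and low and 90th percentiles of 4.15, 4.26 and 4.22. Of the 41 mitotic genes, 15, 14 and 22 exceeded that percentile in high, medium and low, and 14, 12 and 8 lay under the median of the 28. Mki67 and Cenpa exceeded the brightest of the 28 in every gate, and Ccnb2 and Ube2c did so in low. Birc5 and Kif20a, although called, read at 3.24 to 4.22 and 3.68 to 4.34 over the 9 arrays. Birc5, Kif20a and Anln were absent from the fit limited to genes above the array median on at least 3 arrays, which kept 19 of the 41 and called Top2a and Pbk, where 13.1% of all genes in that fit were called. Pbk entered that fit through its low arrays alone, so its call there is no support.

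**Figure D5:**
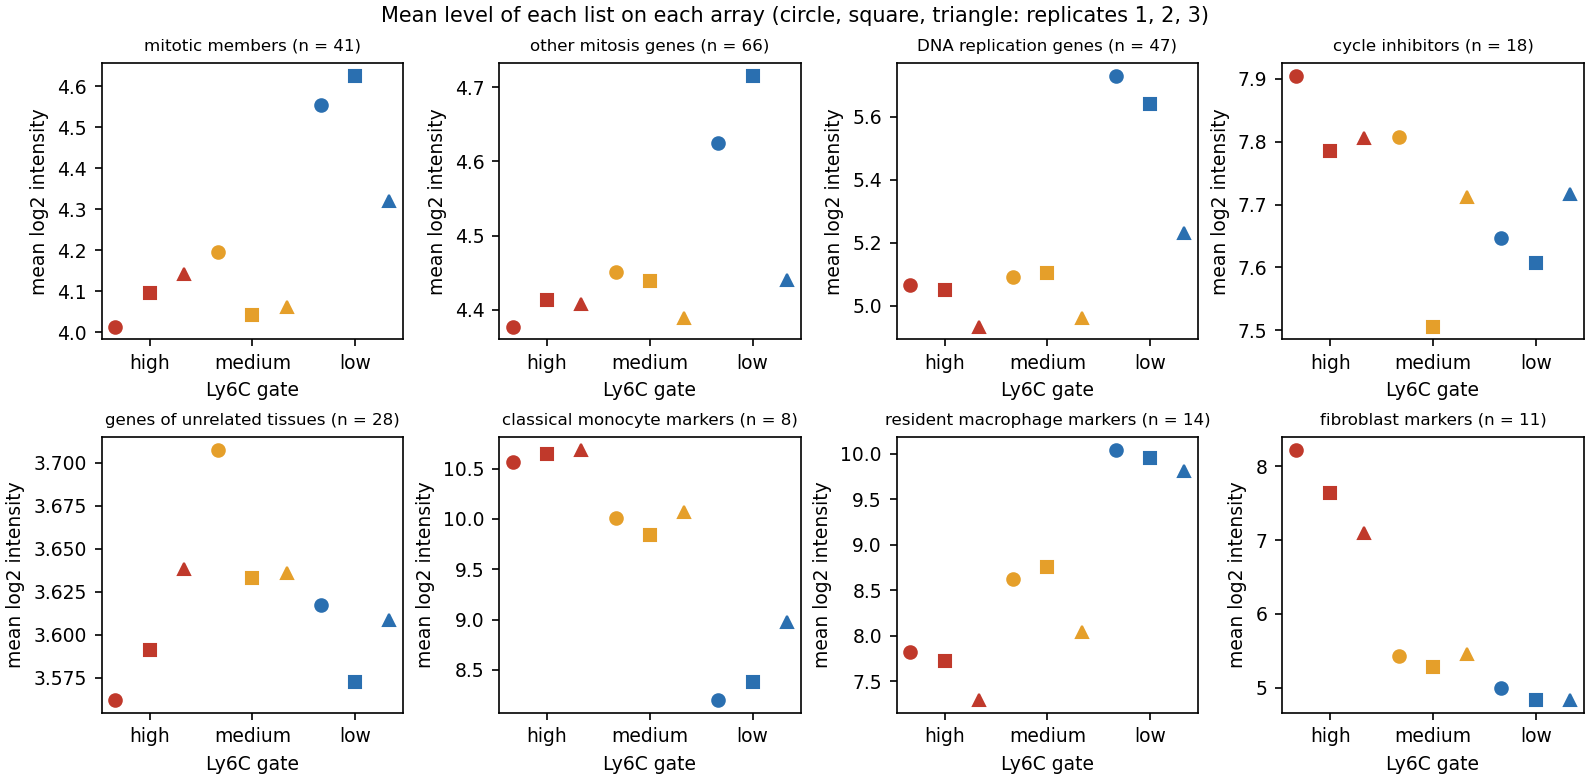
Mean log2 intensity of 8 gene lists on each array by Ly6C gate, with replicates as symbols and each panel on its own scale. Mitotic and DNA replication genes are highest on low replicates 1 and 2, genes of unrelated tissues stay within a narrow band, and monocyte, macrophage and fibroblast markers separate the gates.

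Other genes of the cell cycle were read from lists of their own. Of 66 further mitosis genes measured of 70 listed, 2 were higher in low (3.03%, against 3.35% of all genes) and 2 lower, with a median log2 difference of 0.19. Cdca8, the borealin subunit of the passenger complex, and Ncapd2, a condensin subunit, were higher by 0.89 and 0.89 (limma adjusted p = 0.029 and 0.0416). Lmnb1, a protein of the nuclear lamina, and Ncapg2, a subunit of the second condensin, were lower, at -0.92 and -0.71 (adjusted p = 0.0169 and 0.0423). The difference was above 0 for 53 of the 66 (80.3%), and every low array exceeded every high array for 11 (16.7%, against 11.4%). The 4 calls fell to 2 without medium replicate 1 or 3, to 1 without high replicate 1 or 2 or low replicate 2, and to 0 without high replicate 3. Calls over all genes fell too, from 5.67% to 4.59%, 4.67%, 4.56%, 3.61%, 2.93% and 3.52% in that order. Without low replicate 3 there were 6, with 5 higher and 1 lower, where 5.6% of all genes were called. In their promoters, 33 of 54 windows held a CHR of either form (61.1%, against 17.4% of windows of all tested genes).

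DNA replication genes, active just before G2, read much like the 41 mitotic genes in low versus high (9.76% of those called higher, median log2 difference 0.35). Of 47 measured of 50 listed, 6 were higher in low than high (12.8%, against 3.35% of all genes) and 0 lower, with a median log2 difference of 0.39. Mcm6 and Mcm3, subunits of the helicase that opens DNA, were higher by 2.00 and 1.58 (limma adjusted p = 0.0108 and 0.0019). Lig1, the ligase that joins new fragments, and Tipin, a fork protection protein, were higher by 1.42 and 1.38 (adjusted p = 0.0298 and 0.00344). Mcm3 and Tipin were also higher in low than in medium (by 1.30 and 1.21, adjusted p = 0.0106 and 0.0155), among 3 of 47. Pcna, the sliding clamp of DNA polymerase, was bright and level at 9.70, 9.84 and 9.78 in Ly6C high, 9.71, 9.98 and 9.88 in medium, and 9.89, 9.85 and 9.79 in low (low minus high adjusted p = 0.82), and Mcm2 was not past the threshold (1.00, adjusted p = 0.166). Without low replicate 3 the counts were 16 in low versus high and 12 in low versus medium, where 5.6% and 2.35% of all genes were called. The count in low versus medium was 0 without low replicate 1 and 1 without low replicate 2 or medium replicate 3. The shares of all genes there were 0.6%, 0.613% and 0.537% in that order. In their promoters 6 of 37 windows held a CHR of either form (16.2%), near the 17.4% of windows of all tested genes.

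Upstream of replication, 2 of 25 genes of the G1 cyclin, E2F and MuvB list were higher in low (8%, against 3.35% of all genes) and 0 lower. Ccnd1, the cyclin D that growth signals induce, read 6.28, 6.62 and 6.09 in Ly6C high, 6.32, 6.33 and 6.17 in medium, and 7.78, 7.61 and 7.51 in low. All low arrays were above all others (2.47-fold over high, limma adjusted p = 0.00184, and log2 1.36 over medium, adjusted p = 0.00423). Its partner kinase Cdk4 was higher by 1.06 (adjusted p = 0.0273). The count was 1 without low replicate 1 or 2, high replicate 2 or 3, or medium replicate 1, and 4 without low replicate 3. The shares of all genes called there were 2.69%, 2.93%, 3.61%, 3.52%, 4.59% and 5.6% in that order, against 5.67% as deposited. The low minus high differences of Ccnd2, Ccnd3 and Ccne1 were 0.49, 0.51 and 0.44, and those of E2f1, Mybl2 and Myc 0.37, 0.30 and 0.22, none past the threshold (adjusted p from 0.149 to 0.704). E2f8, an E2F repressor that rises in S phase, differed by -0.67 (adjusted p = 0.0979).

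Genes that hold cells out of the cycle were mostly lower in low where they passed. Of 18 measured of 21 listed, 5 were lower in low than in high (against 2.32% of all genes) and 1 was higher, with a median log2 difference of -0.18. The 5 lower calls fell to 3 without low replicate 1, low replicate 2 or high replicate 3. Calls in either direction over all genes fell too, from 5.67% to 2.69%, 2.93% and 3.52% in that order. Cdkn1b, the CDK inhibitor p27 of resting cells, read 9.60, 9.10 and 9.28 in Ly6C high, 8.55, 8.12 and 8.49 in medium, and 8.16, 8.10 and 8.19 in low. Medium lay near low rather than high (low minus high -1.18, limma adjusted p = 0.00353, and medium minus high -0.94, adjusted p = 0.0691). Ccng2, a cyclin of arrested cells, and Cdkn2d, an inhibitor of CDK4 and CDK6, were lower by 1.19 and 0.90 on the log2 scale (adjusted p = 0.0159 and 0.0203). Btg1, an antiproliferative gene, read below medium in the low gate (-0.51, adjusted p = 0.0493). Cdkn1a, the inhibitor p21, was bright in every gate and not past the threshold (-0.35, adjusted p = 0.253). Maf, a factor known to restrain macrophage self-renewal and also a resident macrophage marker in the lists used here, was the gene that was higher, at 1.37 over high and 0.91 over medium (adjusted p = 0.00363 and 0.0443). Of the 2 calls between low and medium, Maf and Btg1, 1 was left without any 1 high array or without low replicate 3, and 0 without any other array. The shares of all genes called were 1.53% to 2.35% in the former runs and 0.537% to 1.01% in the latter, against 1.93% as deposited. Of 7 replication-dependent histone genes measured of 16 listed, 0 passed with limma in low versus high, where 5.67% of all genes did. At an unadjusted p under 0.05, 1 was higher (14.3%, against 10.4%), and 1 gene passed without medium replicate 1.

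Markers of cell types moved between the gates beside the mitotic genes. Genes of the labelled myeloid type were bright, with low gate means of 10.58 for Itgam (CD11b), 10.82 for Csf1r and 10.12 for Ptprc (CD45), and Ly6g read 3.58. Resident macrophage markers were higher in low for 14 of 14 genes, and dendritic cell markers for 6 of 11, while 6 of 8 monocyte markers were lower. Of 14 neutrophil markers 1 was higher and 2 lower, of 10 endothelial markers 1 was lower, and of 6 eosinophil markers 3 were higher. Of 10 markers of the labelled myeloid type 1 was lower. Over all genes 3.35% were called higher in low than in high and 2.32% lower, so 1 call in so short a list says little. Fibroblast markers (11 genes) averaged 7.10 to 8.23 in high and 4.83 to 4.99 in low, with 10 lower in low and Col1a2 at 10.27 and 5.74. Kit, a receptor of mast cells and progenitors, was higher in low (1.86-fold, limma adjusted p = 0.00213), the 1 of 12 mast cell and basophil markers called, while Cd3e of T cells and Ncr1 of natural killer cells read 2.97 and 2.95 in low. Of 10 natural killer markers, Klrd1 and Klrk1 were higher in low than in high (by 3.15 and 0.94, limma adjusted p = 0.00208 and 0.00912) and than in medium (by 2.19 and 0.88), and of 10 T cell markers Thy1 was lower than in high (-2.18, adjusted p = 0.0176). These genes were named after their values were seen. Keratinocyte markers averaged 4.38 to 5.48 in high and 4.61 to 4.70 in low, with Krt14 at 6.97 and 6.00 (adjusted p = 0.389) and 1 of 12 markers called, Sfn, higher by 1.11 (limma adjusted p = 0.00391). Krt5 was not analysed here. The part of these other cells in the mitotic gene readings was not tested.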

How the data were processed

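Values were RMA log2 intensities per probe set of Affymetrix arrays, deposited by the authors (RMA per the submitters' processing notes, version and settings not stated; RNA amplified before hybridization, per the labels' protocols). They were used without further normalization. Of 41345 probe sets, 23521 had 1 gene symbol, 1814 several and 16010 none in the table given, and only the first were used. The probe set with the highest mean over 9 arrays represented a gene, and each of the 41 mitotic genes had 1. R 4.3.3 and limma 3.58.1 (lmFit, eBayes, two-sided) fitted all 9 arrays at once with 6 residual degrees of freedom, and p-values were adjusted by Benjamini-Hochberg over 22180 genes at a threshold of 0.05. For arrays, their number limits the precision.

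The genes and lists were chosen with earlier results of these data known. Values on every array are given for genes past the threshold, the 5 brightest, the 3 dimmest and a fixed set (Mki67, Top2a, Cdk1, Foxm1, Aurkb, Birc5), and for others chosen after their values were seen. Alternatives changed the normalization, the filter on dim genes, the choice of probe set, the prior, array weights, the replicate block, the arrays fitted and each array left out. The scripts were checked on simulated intensities of known change. Promoter sequences are from RefSeq (GRCm38.p6), using the first window listed per gene. For the arrays' genome build: not given in the sources used here.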

Additional observations from a re-analysis of the deposited data

How the results depend on the processing

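The median low minus high difference of the mitotic genes was above 0 in all 19 alternatives. For the choice of probe set, the prior, the replicate block, the 2 gates alone and no moderation, this median could not move from 0.35. The same held when a medium array was left out. Birc5, Kif20a, Anln and Top2a were higher in low in each alternative in which they were tested. They were picked by their calls in these data, so that direction is no support. For low versus high, 4 genes passed as deposited, 2 with genes above the array median (19 tested), 1 with genes of log2 6 or more (3 tested), 8 with array weights, 2 with only the 2 gates compared and 2 without moderation. The shares of all genes called were 5.67% as deposited and 13.1%, 20.7%, 6.48%, 2.9% and 1.74% in that order. For low versus medium the count was 0 as deposited. It was 1 with quantile normalization, with centring, with the log2 6 filter and with a trended and robust prior, and 2 with array weights. The shares of all genes called were 1.93% as deposited and 1.82%, 2%, 9.4%, 1.56% and 2.71% in that order. With the log2 6 filter the call was Ccnb2. Outside the low gate it reached that level only on high replicate 2 (6.13) and medium replicate 3 (6.01). It would not have passed the filter without its low arrays, so the call is no support. The F test called 3 genes, against 1 with genes above the array median, 0 with the log2 6 filter and 0 without moderation (all genes 4%, 9.44%, 15.8% and 0.433%). With the log2 6 filter, which left 3 genes, each median was the value of 1 gene. It was that of Ccnb2 for low versus high (0.92) and medium versus high (-0.15), and that of Mki67 for low versus medium (0.63).

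Leaving out each array in turn gave 1 to 12 genes for low versus high, 0 to 8 for low versus medium, 0 to 0 for medium versus high and 0 to 10 for the F test. The shares of all genes called in these runs were 2.69% to 5.6%, 0.537% to 2.35%, 0.00902% to 0.325% and 1.54% to 3.73% in that order. The medians ranged from 0.30 to 0.46, 0.29 to 0.40 and -0.03 to 0.05 in the same order of comparisons. The highest values of the comparisons with low and of the F test came without Ly6C low replicate 3, and the cause was not tested. Counts of the other cell cycle lists under these alternatives were chosen after seeing the data. Medium versus high had 0 calls in each alternative. Only 0% to 0.872% of all genes were called there, so these 0 calls say little about the mitotic genes. The median of that comparison was -0.03 with quantile normalization and with centring, where the median over all genes moved too, from 0.03 to 0.01 and -0.02.

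With the replicate number as a block, 6 genes passed in low versus high (the 4 with Nuf2 and Ube2c) and 2 in low versus medium (Anln and Top2a). Calls over all genes rose too, to 7.05% and 2.84% from 5.67% and 1.93% as deposited. Nothing in the labels ties same-numbered arrays to 1 animal or batch. Deviations of same-numbered arrays from their gate means correlated at -0.0166 to 0.309 over genes (median 0.10). Those of arrays with different numbers correlated at -0.183 to 0.151 (median -0.06). Of the 9 arrays, 3 correlated best with their own number in both other gates, and these were replicate 3 of each gate. What the arrays numbered 3 share was not tested.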
